A study of Mus musculus with 60 samples.

Results

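The metabotropic glutamate receptors are G protein-coupled receptors for the transmitter glutamate. 6 of their genes, Grm2, Grm3, Grm4, Grm5, Grm7 and Grm8, are described here. They were chosen by gene symbol from the 18088 genes of a table of prefrontal cortex RNA, and all 6 are among the 17810 genes that were tested. Each had a normalised read count of at least 10 in all 60 libraries.

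The libraries come from C57BL/6J mice on postnatal day 25, wild type (WT) or heterozygous (Het) for Grin2b C456Y, a missense allele of the GluN2B subunit of the NMDA receptor. The pups of every group drank the milk of their mothers from postnatal day 3 to 24, a span of 3 weeks, and through it received vehicle, fluoxetine (a serotonin reuptake inhibitor) or lithium (a mood stabiliser). The 6 combinations of genotype and drug hold 10 libraries each, 5 female and 5 male. The labels do not say that the libraries are separate animals or litters, so the p-values measure the spread between these samples.

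The family has 3 groups. Grm5 belongs to group I, which couples to Gq and phospholipase C, sits mainly around the postsynaptic density and is tied to Homer scaffolds and, through them, to NMDA receptors. Grm2 and Grm3 form group II, and Grm4, Grm7 and Grm8 belong to group III. Both of these groups couple to Gi/o, lower cAMP and restrain transmitter release from presynaptic terminals. Grm3 is also well known in astrocytes, and Grm7 and Grm4 bind the adhesion proteins Elfn1 and Elfn2 across the synapse.

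Libraries held 23901635 to 37769417 reads. The labelled tissue was checked against markers: the 8 genes for excitatory neurons, such as Slc17a7 and Camk2a, summed to 117343 to 205592 normalised reads in every library. Markers of striatal neurons summed to 4281 to 29649 and those of the olfactory bulb and of immature neurons to 7274 to 28275, so single libraries differed widely in these. The Het fluoxetine libraries differed from the others as a group, with overlap of single libraries. Across 12472 abundant genes, the correlation between a gene's deviation in a library and its GC content had a median of -0.364 in Het fluoxetine, with -0.468 as the lowest and -0.154 as the highest value. The medians of the other groups lay between -0.0025 and 0.262. Single libraries of other groups lay inside or below the Het fluoxetine range. The lowest values were -0.756 in WT lithium, -0.509 in WT vehicle, -0.35 in Het lithium and -0.22 in Het vehicle. In addition, 9 of the 10 Het fluoxetine libraries, and 1 WT vehicle library (female replicate 2), were low in a group of 16 pseudogenes. These pseudogenes were chosen because they differed more than 4-fold between Het and WT in fluoxetine. A difference that involves Het fluoxetine therefore cannot be told apart from a difference between sets of libraries. The called receptor differences are given below with and without corrections for it. The cell type markers and some other values are given without corrections.

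Per length of transcript, Grm3 and Grm5 were the most abundant members and Grm8 the least. In WT vehicle, the level per kilobase of the longest transcript was 630 ± 51.4 normalised reads for Grm3 and 629 ± 64.3 for Grm5 (SD, n = 10 each). Grm2 followed at 506 ± 70.9, Grm7 at 379 ± 35.7, Grm4 at 277 ± 76.6 and Grm8 at 113 ± 11.9. Neighbours in this order overlapped in their ranges except Grm4 and Grm8. In the other 5 groups Grm5 came first on this scale and Grm3 second. Grm2 and then Grm7 followed, except in Het fluoxetine, where Grm7 stood at 401 ± 17.3 and Grm2 at 392 ± 36.3, with overlapping ranges. With the total length of all exons in place of the longest transcript, Grm5 stood at 494 and Grm8 at 54.8 in WT vehicle and the order of the 6 was the same. In the other groups this length changed the order. Grm3 then came first and Grm5 second, except in Het fluoxetine. There Grm5 stayed first at 604, and Grm2 at 378 stood before Grm7 at 286.

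**Figure D1:**
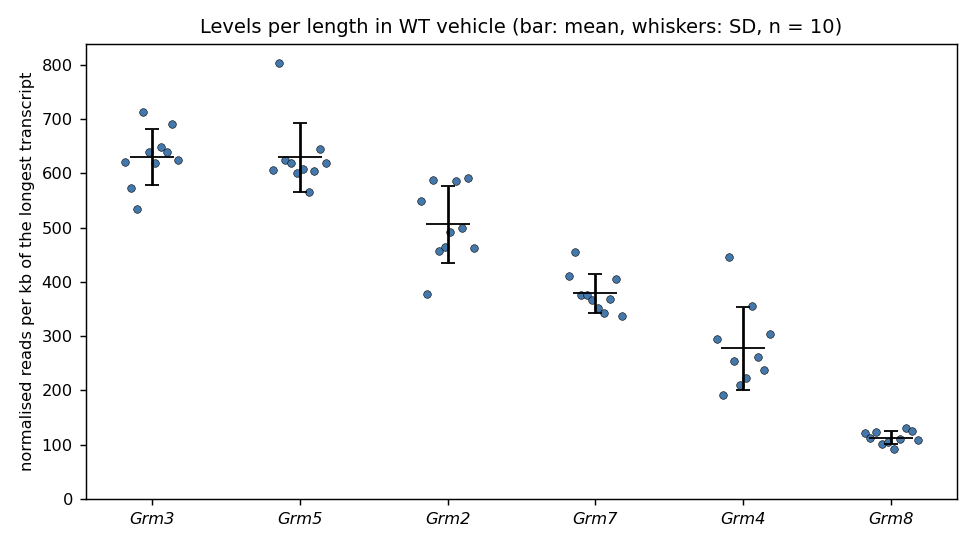
Normalised reads per kilobase of the longest transcript (y axis) for the 6 receptor genes (x axis) in the 10 WT vehicle libraries, 1 point per library, with the mean as a bar and the SD as whiskers. Grm3 and Grm5 lie together near 630, and Grm8 lies at 113, below every library of Grm4.

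The genes are spread over 5 chromosomes, and their transcripts differ in base composition (positions in GRCm38, GENCODE M21, all protein-coding). Grm5 lies at chr7:87584168-88134907 on the plus strand, and its longest transcript has 8047 bases with 42.5% GC. Grm2 (chr9:106643095-106656082, minus strand) has 4711 bases with 56.9% GC, and Grm3 (chr5:9485541-9725170, minus strand) has 3049 bases with 47.6% GC. Grm4 (chr17:27422387-27521403, minus strand) has 4607 bases with 61.7% GC. Grm7 (chr6:110645581-111567230, plus strand) has 4210 bases with 47.2% GC, and Grm8 (chr6:27275119-28135178, minus strand) has 4799 bases with 41.9% GC. Grm4 and Grm2 are thus the richest in GC, and Grm8 and Grm5 the poorest.

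The 250 bases upstream of the RefSeq start sites (GRCm38.p6) are shown for Grm2, Grm3 and Grm7, the members called in Het fluoxetine for which the table of promoters has an entry. They are written 5′ to 3′ on the strand of the gene, at chr9:106656110-106656359 for Grm2, chr5:9725353-9725602 for Grm3 and chr6:110645348-110645597 for Grm7. Capitals mark the GC box, GGGCGG on either strand.
Grm2: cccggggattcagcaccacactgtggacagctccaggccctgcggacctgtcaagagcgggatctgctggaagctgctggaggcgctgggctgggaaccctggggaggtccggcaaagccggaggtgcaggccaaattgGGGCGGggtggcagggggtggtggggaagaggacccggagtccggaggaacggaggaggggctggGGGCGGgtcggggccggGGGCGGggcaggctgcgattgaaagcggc
Grm3: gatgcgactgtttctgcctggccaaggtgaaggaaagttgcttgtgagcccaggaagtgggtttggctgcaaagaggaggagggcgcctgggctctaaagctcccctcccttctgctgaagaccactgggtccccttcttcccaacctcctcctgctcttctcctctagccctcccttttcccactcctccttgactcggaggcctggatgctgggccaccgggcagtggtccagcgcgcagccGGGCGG
Grm7: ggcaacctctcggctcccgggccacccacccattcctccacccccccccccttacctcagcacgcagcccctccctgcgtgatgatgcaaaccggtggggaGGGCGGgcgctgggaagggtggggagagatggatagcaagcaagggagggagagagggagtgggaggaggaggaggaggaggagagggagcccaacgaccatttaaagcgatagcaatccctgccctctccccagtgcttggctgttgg
Grm2 holds 3 GC boxes in its window, and Grm3 and Grm7 hold 1 each, as does Grm8. The windows have 71.2%, 62.4% and 65.2% GC, against a median of 52.4% over 32851 windows of the same length. The motif GGGCGG occurs in 32.7% of those windows. None of these 4 windows held the Egr motif GCGTGGGCG, the cAMP response element TGACGTCA or the E box CACGTG, searched on both strands. These motifs occur in 0.536%, 1.55% and 6.02% of all windows. Grm4 and Grm5 had no window and were not searched. These are matches of letters only.

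The first comparison asks whether the allele alone moved the receptors. In vehicle, 0 of the 6 were called between Het and WT mice at a limma adjusted p below 0.05, where 0.59% of all genes were called, and 0 had an unadjusted p below 0.05. The largest difference was in Grm4, the group III receptor of presynaptic terminals. Grm4 ranged from 878 to 2051 in WT vehicle (median 1184) and from 730 to 1672 in Het vehicle (median 1055). Its log2 difference was -0.19, with a 95% interval from -0.47 to 0.09. The interval was -0.09 to 0.12 for Grm5, -0.21 to 0.14 for Grm2, -0.18 to 0.10 for Grm3, -0.12 to 0.05 for Grm7 and -0.18 to 0.11 for Grm8. The edgeR and DESeq2 tests on the recovered reads called the same number of receptors as limma in this and in each of the other 9 contrasts.

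**Figure D2:**
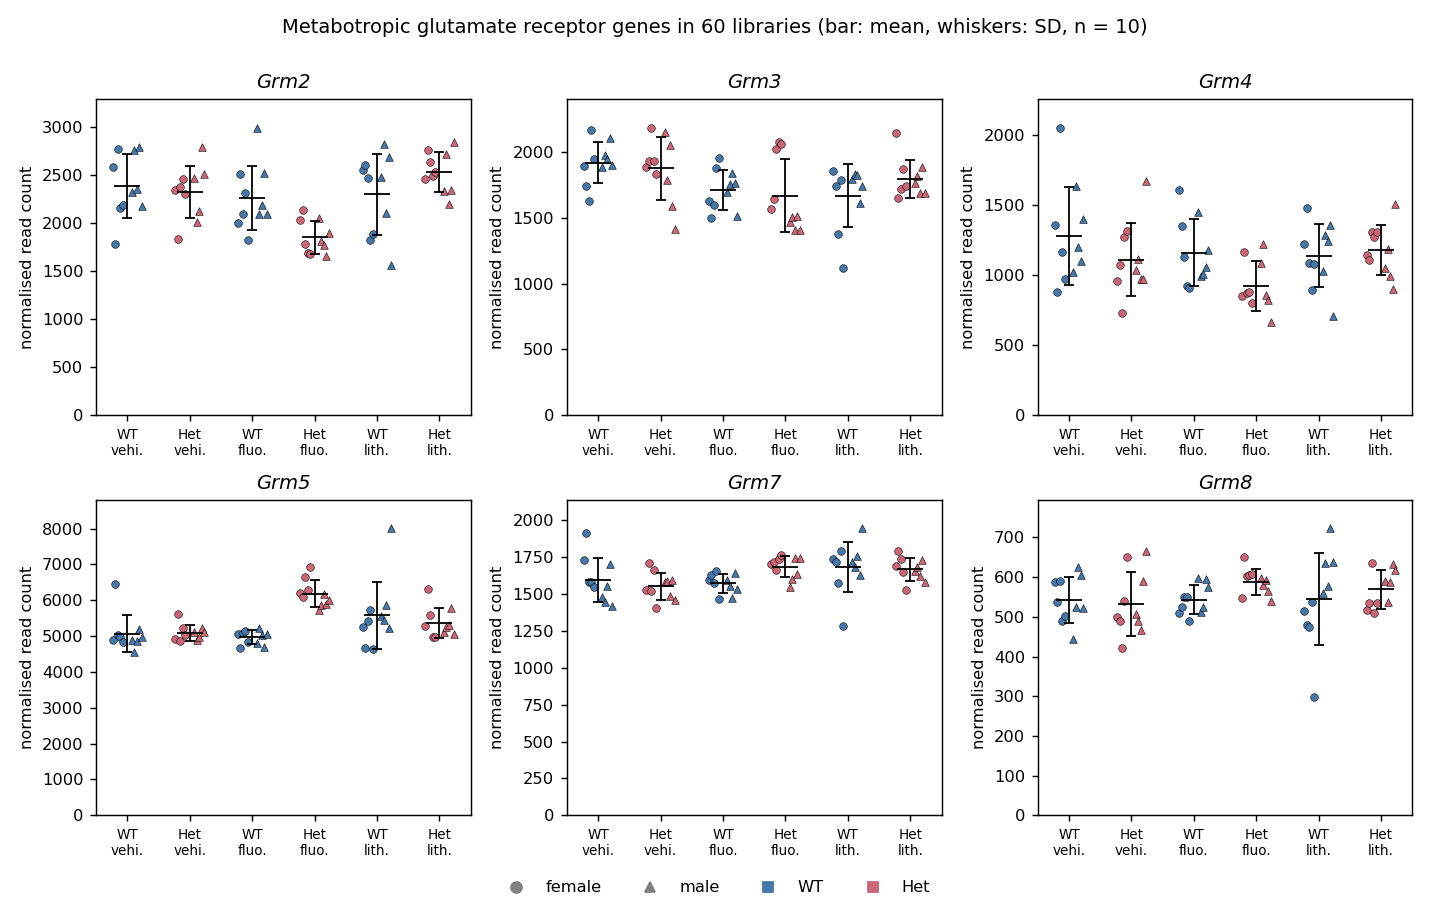
Normalised read counts (y axis, from 0) of the 6 receptor genes in each library of the 6 groups of genotype and drug (x axis: vehi., vehicle; fluo., fluoxetine; lith., lithium), with circles for females, triangles for males, bars for means and whiskers for the SD of 10 libraries. The Grm5 points of Het fluoxetine (5733 to 6930) lie above all points of Het vehicle and of WT fluoxetine, and the Grm2 points of Het fluoxetine (1650 to 2129) lie low.

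Fluoxetine in WT mice left all 6 receptors uncalled, where 8.43% of all genes were called (775 higher and 727 lower, or 808 and 1392 after the GC correction described below). The group II receptor gene Grm3 was the 1 member with an unadjusted p below 0.05. Its normalised read count ran from 1626 to 2171 in WT vehicle (median 1927) and from 1497 to 1953 in WT fluoxetine (median 1727). The ranges overlapped, and 8 of the 10 fluoxetine libraries lay below the vehicle mean of their sex, taken on the log2 scale here and below. The log2 difference of -0.17 (SE 0.070, 95% interval -0.31 to -0.03) had an adjusted p of 0.138. Grm5, which in WT fluoxetine had a mean of 4962 ± 194 against 5063 ± 517 in vehicle, had an interval from -0.13 to 0.08. Grm7 and Grm8 had differences of -0.02 and 0.00, and Grm2 and Grm4 of -0.08 and -0.12.

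Between the Het fluoxetine and Het vehicle libraries, 4 of the 6 receptors were called, where 39% of all genes were called. Grm5 and Grm7 were higher, and both group II genes, Grm2 and Grm3, were lower.

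Grm5, the group I receptor, ran from 4876 to 5602 in the 10 Het vehicle libraries (median 5060.3) and from 5733 to 6930.1 in the 10 Het fluoxetine libraries (median 6138). Every fluoxetine library was above every vehicle library. The mean rose from 5094 ± 220.0 to 6187 ± 368 (1.21-fold), with a log2 difference of 0.28 (SE 0.052) and an adjusted p of 3.47e-05. The difference was 0.33 in females and 0.23 in males, and the ranges overlapped in neither sex. Each of 20 fits with 1 library left out kept the call.

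Grm2, a presynaptic autoreceptor of group II, ran from 1829 to 2791 in Het vehicle (median 2355) and from 1650 to 2129 in Het fluoxetine (median 1794). All 10 fluoxetine libraries were below the vehicle mean of their sex, and 6 were below every vehicle library. The mean fell from 2319 ± 274 to 1848 ± 171, a log2 difference of -0.32 (SE 0.087, adjusted p = 0.00274). This call too was kept in each of 20 fits.

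Grm3, the other group II gene, ran from 1414 to 2185 in Het vehicle (median 1909) and from 1408 to 2081 in Het fluoxetine (median 1541). The low values of Het fluoxetine were mainly those of the males, which lay between 1408 and 1514, while the females lay between 1569 and 2081. The log2 difference was -0.17 (SE 0.070, adjusted p = 0.0414), with -0.07 in females and -0.28 in males. In a comparison added after the values were seen, the difference between the sexes in this drug effect was 0.22 (SE 0.139, adjusted p = 0.82). The call for Grm3 was kept in 12 of 20 fits. Its adjusted p was 0.102 and 0.0875 without Het fluoxetine female replicates 1 and 2, 0.0629 and 0.0624 without male replicates 3 and 5, 0.0875 without Het vehicle female replicate 3, and 0.109, 0.055 and 0.0952 without Het vehicle male replicates 1, 2 and 3.

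Grm7, the most widespread group III receptor, ran from 1407 to 1708 in Het vehicle (median 1553) and from 1545 to 1766 in Het fluoxetine (median 1712). The ranges overlapped, with 5 fluoxetine libraries above every vehicle library. Its log2 difference of 0.12 (SE 0.044, adjusted p = 0.0282) was the smallest of the 4 calls. The adjusted p was 0.0555 and 0.0548 without Het fluoxetine male replicates 3 and 5, and 0.0713 and 0.052 without Het vehicle female replicate 5 and male replicate 5.

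The other group III genes were not called. Grm4 was at 922 ± 176 in Het fluoxetine and 1111 ± 257 in Het vehicle (log2 difference -0.26, interval -0.54 to 0.02, adjusted p = 0.136). Grm8 was at 589 ± 32.7 and 532 ± 79.7 (0.16, interval 0.01 to 0.31, adjusted p = 0.0799). All 10 Het fluoxetine libraries lay above the mean log2 level of Grm8 in the vehicle libraries of their sex, with male replicate 5 below the mean of the untransformed values (541 against 543), and none was outside the vehicle range of 421 to 665. Without Het vehicle female replicate 5 or male replicate 5, the adjusted p of Grm8 was 0.0243 or 0.0283. In bulk tissue, fewer cells of a type and less RNA per cell cannot be told apart for any of these genes.

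Against WT mice given the same drug, Het fluoxetine mice differed in 2 receptors, where 39.5% of all genes were called (3497 higher and 3545 lower). Grm5 ran from 4668 to 5237 in WT fluoxetine (median 5033), and all 10 Het fluoxetine libraries were above that range. The log2 difference was 0.32 (SE 0.052, adjusted p = 1.15e-05). Grm2 ran from 1824 to 2986 in WT fluoxetine (median 2138), and 6 Het fluoxetine libraries lay below that range. Its difference was -0.28 (SE 0.087, adjusted p = 0.00805). Grm4 (-0.33, interval -0.61 to -0.05, adjusted p = 0.0532) and Grm7 (0.10, interval 0.01 to 0.19, adjusted p = 0.0637) did not pass, and Grm3 (-0.05) and Grm8 (0.12) had intervals that include 0. Leaving out 1 of 7 libraries brought Grm4 to an adjusted p between 0.0275 and 0.0498 (Het fluoxetine female replicate 2 and male replicates 1 and 2, WT fluoxetine female replicates 4 and 5 and male replicates 2 and 3). Without Het fluoxetine male replicate 1 that of Grm7 was 0.0422.

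Whether the drug acted differently in the genotypes was tested as an interaction, called for 24% of all genes and for 1 receptor. The log2 effect of fluoxetine on Grm5 in Het mice exceeded that in WT mice by 0.30 (interval 0.16 to 0.45, SE 0.073), with an adjusted p of 0.00279. For Grm2 the interaction was -0.25 (interval -0.49 to 0.00, adjusted p = 0.141), for Grm7 0.14 (adjusted p = 0.106) and for Grm3 -0.01 (adjusted p = 0.959). The vehicle and fluoxetine groups are shared between these comparisons.

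**Figure D3:**
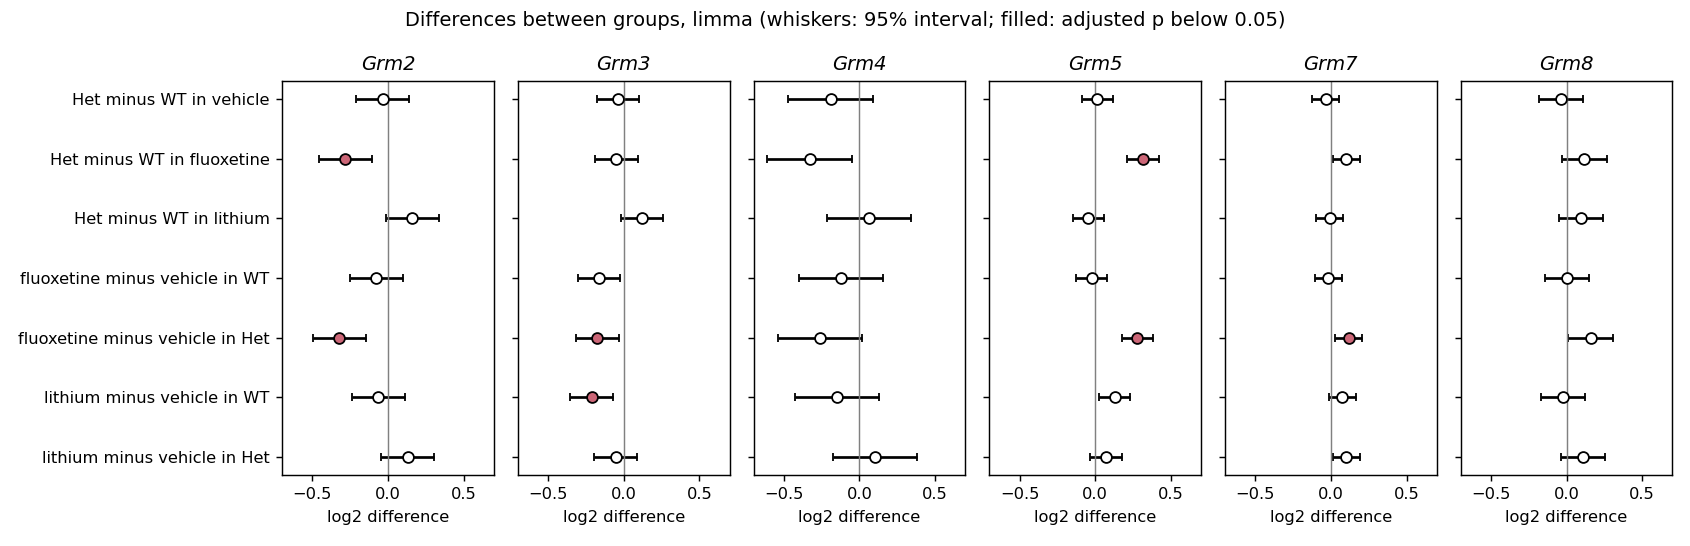
Log2 differences (x axes) of the 6 receptor genes in 7 comparisons averaged over the sexes (rows), with 95% intervals as whiskers and filled points where the limma adjusted p is below 0.05. Grm5 stands at 0.32 and 0.28 in the rows that involve Het fluoxetine, Grm2 at -0.28 and -0.32 in the same rows, and the lithium rows hold 1 filled point, Grm3 in WT mice at -0.21.

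The direction of these differences in Het mice split with the base composition of the transcripts. The 3 members richest in GC, Grm4, Grm2 and Grm3, had differences of -0.26, -0.32 and -0.17, and the 3 poorest, Grm7, Grm5 and Grm8, had 0.12, 0.28 and 0.16. Grm3 and Grm7, at 47.6% and 47.2%, lie on either side of that split with nearly equal GC content. After each library was corrected for its trend on GC content, fluoxetine against vehicle in Het mice was called for 19.6% of all genes and for 2 receptors. Grm5 kept a difference of 0.15 (SE 0.040, adjusted p = 0.00563), and Grm3 had -0.22 (SE 0.073, adjusted p = 0.0283). Grm2 dropped to -0.17 (interval -0.32 to -0.02, adjusted p = 0.111), and Grm7 to 0.07 (adjusted p = 0.28). Grm4 and Grm8 were at -0.03 and 0.01. Het against WT in fluoxetine was then called for 13.1% of all genes (1578 higher and 750 lower), with Grm5 at 0.17 (SE 0.040, adjusted p = 0.00214) and Grm2 at -0.08 (adjusted p = 0.523). The interaction of Grm5 was 0.18 (SE 0.056, adjusted p = 0.0422).

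A term for the 10 libraries low in the pseudogenes ended every one of these calls. Its pseudogenes were chosen from Het against WT in fluoxetine, so its libraries are nearly the Het fluoxetine group. The loss of calls is therefore no independent check of them. With that term, fluoxetine against vehicle in Het mice was called for 0.275% of all genes and Het against WT in fluoxetine for 0.0393%, and neither for a receptor. Grm5 was at 0.08 (interval -0.11 to 0.26, adjusted p = 0.895) against vehicle and at 0.11 (interval -0.07 to 0.30, adjusted p = 0.946) against WT. Grm2 was at -0.03 and 0.01, and Grm7 at -0.05 and -0.07. A term for the 11 libraries without a read of the pseudogene Rps6-ps4 left Grm5 at 0.18 (interval 0.01 to 0.35, adjusted p = 0.267) in Het mice.

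These terms rest on few libraries, whose values can be read directly. Het fluoxetine male replicate 1 was the only library of its group not low in the pseudogenes. It had 5733 normalised reads of Grm5, the lowest of Het fluoxetine but above all Het vehicle and WT fluoxetine libraries. It had 2054 of Grm2, the second highest of its group, and 1545 of Grm7, the lowest. WT vehicle female replicate 2, the 1 library outside Het fluoxetine that was low in the pseudogenes, had 6459 of Grm5, 1777 of Grm2 and 878 of Grm4. Its Grm5 was the highest of WT vehicle and inside the range of Het fluoxetine, and its Grm2 and Grm4 were the lowest of WT vehicle. The correlation with GC content was -0.154 in Het fluoxetine male replicate 1 and -0.509 in WT vehicle female replicate 2. From these single libraries, the Het fluoxetine group and the set of libraries low in the pseudogenes cannot be told apart.

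**Figure D4:**
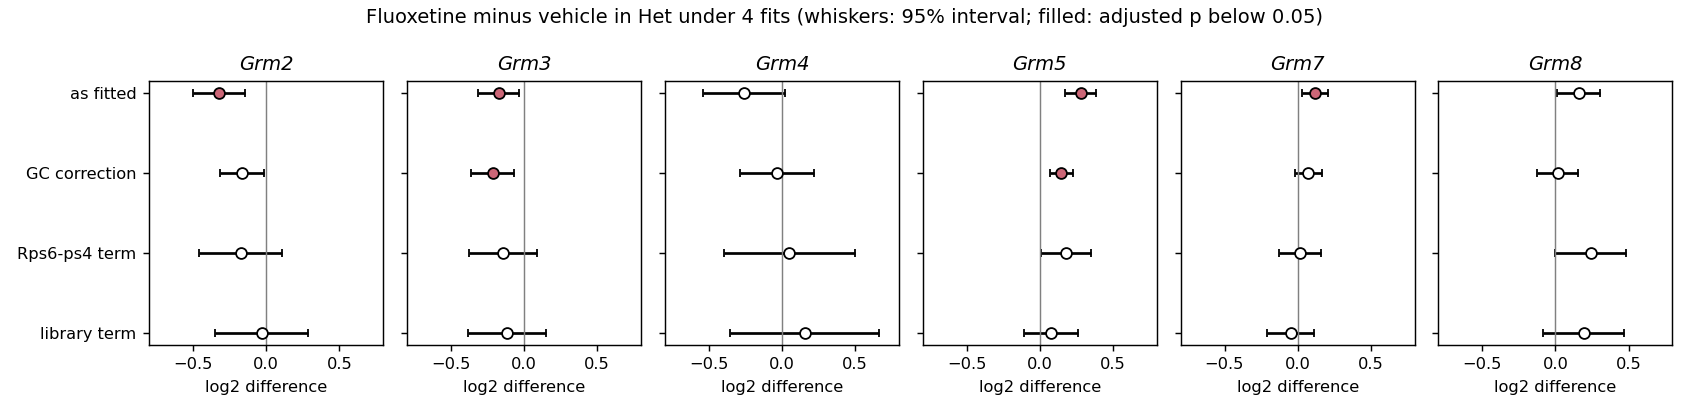
Log2 difference between fluoxetine and vehicle in Het mice (x axes) for the 6 receptor genes in 4 fits (rows), with 95% intervals as whiskers and filled points where the adjusted p is below 0.05. Grm5 stands at 0.28 as fitted and 0.15 after the GC correction, both filled, and at 0.18 and 0.08 with the Rps6-ps4 and library terms, both open.

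Markers of cell types differed in the same comparison, where 39% of all genes were called. Of the 8 markers of excitatory neurons, 4 were lower in Het fluoxetine than in Het vehicle (Slc17a7, Camk2a, Neurod2 and Fezf2) and 0 were higher. Their sum ran from 117343 to 162934 in Het fluoxetine and from 132981 to 205592 in Het vehicle. Of the 8 markers of astrocytes, where Grm3 and Grm5 are also known to be expressed, 1 was lower (Aldoc) and 0 were higher, with sums of 52973 to 63835 and 50503 to 72740. Of the 6 endothelial markers 4 were lower (Cldn5, Flt1, Pecam1 and Tek), of the 8 interneuron markers 2 were lower and 1 higher, and of the 6 markers of oligodendrocyte precursors 2 were lower and 1 higher. Between Het and WT mice under fluoxetine, where 39.5% of all genes were called, 2 excitatory markers were higher and 1 lower. Of the interneuron markers 3 were lower and 1 higher, and 3 precursor, 2 astrocyte and 1 endothelial marker were lower. None of these markers was at 0 in all libraries of a group. Their part in the receptor differences was not tested.

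In WT lithium against WT vehicle 1 receptor was called, the group II gene Grm3, which was lower, where 19.2% of all genes were called. Grm3 ran from 1626 to 2171 in WT vehicle (median 1927) and from 1115 to 1857 in WT lithium (median 1766). All 10 lithium libraries lay below the vehicle mean of their sex, and 3 lay below every vehicle library. The mean fell from 1921 ± 157 to 1670.2 ± 241, a log2 difference of -0.21 (SE 0.070, adjusted p = 0.0248), with -0.27 in females and -0.16 in males. The call held after the GC correction (-0.24, adjusted p = 0.0168) and with the library term (-0.22, adjusted p = 0.0205). The adjusted p was 0.0849 when the WT vehicle and lithium groups were fitted alone, 0.0588 and 0.0827 without WT lithium female replicates 3 and 5, and 0.065 without WT vehicle female replicate 4. Without the 3 libraries that deviated most from their group means (male replicate 5 and female replicate 5 of WT lithium, female replicate 2 of WT vehicle) it was 0.0839, with a difference of -0.16.

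Grm5 in WT lithium ran from 4633 to 8005 (median 5422), and WT lithium male replicate 5, the library with the strongest GC trend (-0.756), held the highest value. The log2 difference of Grm5 from vehicle was 0.13 (interval 0.03 to 0.23, adjusted p = 0.0684), with -0.02 in females and 0.28 in males. Without the 3 libraries it was 0.13 (adjusted p = 0.0134) and with the library term 0.15 (adjusted p = 0.0218), while after the GC correction it was 0.08 (adjusted p = 0.16). The adjusted p was 0.0405 and 0.0422 without WT lithium female replicates 2 and 5, 0.0438 and 0.0325 without male replicates 2 and 4, and 0.00943 without WT vehicle female replicate 2. Without WT lithium male replicate 5 the difference was 0.08. Grm7 was at 0.08 (adjusted p = 0.224), and at 0.12 without the 3 libraries (adjusted p = 0.0165) or without WT lithium female replicate 5 alone (adjusted p = 0.0321). Grm2 (-0.07), Grm4 (-0.15) and Grm8 (-0.02) were not called.

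In WT lithium against WT vehicle, where 19.2% of all genes were called, 5 of the 8 astrocyte markers were lower and 0 were higher. The 5 were Aqp4, Aldh1l1, Slc1a3, Gja1 and S100b. The sum of the 8 astrocyte markers ran from 50468 to 60565 in lithium and from 56620.5 to 68826 in vehicle. All 6 microglia markers were lower as well, with sums of 6046 to 9019 and 8698 to 10374. Of the 6 endothelial markers 4 were lower (Cldn5, Flt1, Pecam1 and Tek), with sums of 4893 to 6338 and 6023 to 7925. Of the 6 markers of oligodendrocyte precursors 3 were lower (Sox10, Gpr17 and C1ql1), and the interneuron marker Pvalb was higher. None of these markers was at 0 in all libraries of a group, and their part in the Grm3 difference was not tested.

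In Het lithium against Het vehicle 0 of the 6 receptors were called, where 0.983% of all genes were called. Grm7 was the 1 member with an unadjusted p below 0.05, with 1667 ± 77.9 in lithium and 1553 ± 92.1 in vehicle. Its difference was 0.10 (interval 0.01 to 0.19, adjusted p = 0.271), and 9 of 10 lithium libraries lay above the vehicle mean of their sex. Grm3 was at -0.05 (interval -0.19 to 0.09) and Grm2 at 0.13 (interval -0.05 to 0.30). The lithium effect on Grm3 in Het minus that in WT mice was 0.16 (interval -0.04 to 0.36, adjusted p = 0.58). This interaction was called for 0 receptors and for 0.0674% of all genes, and 0 receptors had an unadjusted p below 0.05. Het against WT under lithium was called for 0 receptors and for 0.0281% of all genes, and again 0 had an unadjusted p below 0.05, with Grm2 at 0.16 (interval -0.02 to 0.33) and Grm3 at 0.12 (interval -0.02 to 0.26).

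Side by side, the values of Grm3 relative to vehicle were -0.17 for fluoxetine and -0.21 for lithium in WT mice, and -0.17 and -0.05 in Het mice. The drugs share their vehicle libraries, and the difference between the drugs was not tested.

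Between females and males over all 6 groups, 0 members were called, where 0.107% of all genes were called. Grm8 was lower in females by -0.11 (interval -0.20 to -0.03, unadjusted p = 0.0099, adjusted p = 0.999). In a comparison added after the values were seen, the lithium effect on Grm8 in WT mice was -0.26 in females and 0.21 in males. Among the females WT lithium ran from 299 to 538 and WT vehicle from 489 to 590.4, and among the males from 560.0 to 723 and from 445 to 625. The difference of -0.46 (SE 0.146) had an adjusted p of 0.039, where 9.64% of all genes were called. It was -0.24 (adjusted p = 0.425) after the GC correction and -0.31 (adjusted p = 0.714) without the 3 most deviating libraries. Grm5 and Grm7 went the same way, with -0.30 (adjusted p = 0.0502) and -0.25 (adjusted p = 0.0571), and neither was called. After the GC correction these were -0.10 and -0.19. Grm2, Grm3 and Grm4 had 0.10, -0.11 and 0.08 before the correction.

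Genes that work with the receptors were followed through 5 lists: 19 partners and scaffolds, 20 genes of the Gq pathway, 20 of the Gi/o pathway, 12 of receptor desensitisation and 15 of glutamate transport and supply. Between Het and WT mice in vehicle, and between them under lithium, 0 genes of any list were called by limma; after the GC correction 1 transport gene was called between Het and WT in vehicle.

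Among the partners, Elfn2, the postsynaptic adhesion protein that binds group III receptors, was lower under fluoxetine in both genotypes and under lithium in WT mice. In WT mice it went from 6031 ± 564 in vehicle to 5109 ± 333 in fluoxetine (log2 difference -0.24, SE 0.058, adjusted p = 0.00545) and 5088 ± 656 in lithium (-0.25, SE 0.058, adjusted p = 0.00182). All 10 WT fluoxetine libraries and 9 of 10 WT lithium libraries lay below the vehicle mean of their sex, with overlapping ranges. Both calls held after the GC correction and with the library term, and each was kept in 20 of 20 fits. In Het mice it went from 5979 ± 341 to 4505 ± 256 under fluoxetine (-0.41, SE 0.058), with no overlap, and to 5385 ± 492 under lithium (-0.15, adjusted p = 0.198). With the library term the Het fluoxetine difference was -0.16 (adjusted p = 0.706).

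Elfn1, which recruits Grm7 to synapses on some interneurons, was lower under lithium in WT mice (1023 ± 187 against 1229 ± 129, -0.28, SE 0.072, adjusted p = 0.0046). Under fluoxetine its differences were -0.19 in WT mice (adjusted p = 0.0934) and -0.39 in Het mice (882 ± 62.4 against 1159 ± 98.6, SE 0.072). After the GC correction they were -0.22 in both (adjusted p = 0.00224 and 0.00129), and with the library term -0.22 (adjusted p = 0.0255) and -0.07 (adjusted p = 0.94). The Homer scaffolds bind Grm5. Homer3 was lower in Het fluoxetine than in Het vehicle (174 ± 27.1 against 224 ± 35.3, -0.36, adjusted p = 0.0101), but -0.15 after the GC correction (adjusted p = 0.271). Homer1 differed by 0.03 and Homer2 by 0.06 in that comparison, and neither was called. Homer1 was higher in Het than in WT mice under fluoxetine by 0.30 (adjusted p = 0.0107), and by 0.06 after the GC correction (adjusted p = 0.726). In WT mice the differences under fluoxetine were -0.22 for Homer1 (adjusted p = 0.156) and -0.21 for Homer2 (adjusted p = 0.0702), and after the GC correction -0.24 (adjusted p = 0.0423) and -0.22 (adjusted p = 0.0209). Under lithium they were -0.19 for Homer2 (adjusted p = 0.0611, and 0.00938 after the GC correction) and -0.30 for Homer3 (adjusted p = 0.0521, and 0.0257 with the library term). Pick1, which binds the tail of Grm7, was lower in Het fluoxetine than in Het vehicle by -0.18, also after the GC correction (-0.13, adjusted p = 0.000404), and by -0.08 with the library term (adjusted p = 0.786).

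**Figure D5:**
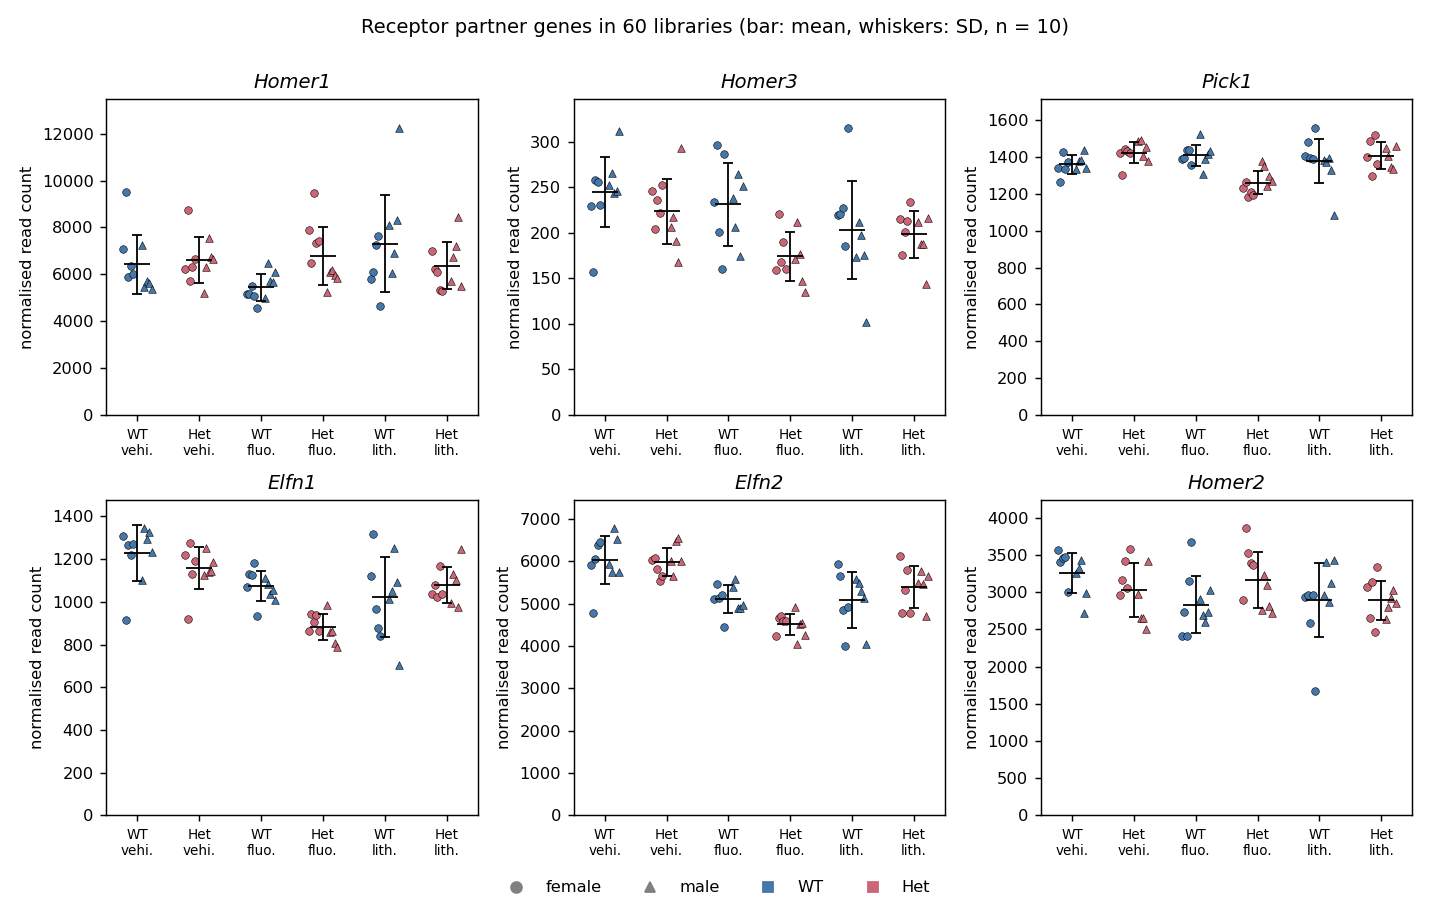
Normalised read counts (y axis, from 0) of 6 genes whose proteins bind the receptors, in each library of the 6 groups (x axis: vehi., vehicle; fluo., fluoxetine; lith., lithium), with circles for females, triangles for males, bars for means and whiskers for the SD of 10 libraries. Elfn2 is lower in WT fluoxetine and WT lithium than in WT vehicle, and its Het fluoxetine points (4044 to 4911) lie below all Het vehicle points.

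Between WT fluoxetine and WT vehicle, 1 of 19 partners, 1 of 20 Gq genes, 1 of 20 Gi/o genes, 2 of 12 desensitisation genes and 2 of 15 transport genes were called, where 8.43% of all genes were called. These counts are near that background and are given as a description of the genes, not of the lists. In the same comparison 3 of the 6 endothelial markers were lower (Cldn5, Flt1 and Tek). Besides Elfn2, the list genes that fell were Gnai3 (-0.30), an inhibitory G protein subunit, the receptor kinase Grk5 (-0.19) and the G protein regulator Rgs2 (-0.21). The neutral amino acid transporter Slc1a4 (-0.17) and the cystine-glutamate exchanger Slc7a11 (-0.32) fell as well. Eef2k, a kinase of elongation factor 2 known to act downstream of group I receptors, rose by 0.18. The median difference was -0.01 for the partners, 0.01 for the Gq genes, -0.01 for the Gi/o genes, -0.03 for desensitisation and -0.06 for transport, against 0.00 over all genes tested. Each of these 7 calls held after the GC correction, with the library term and in 20 of 20 fits with 1 library left out.

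Lithium in WT mice called 1 partner higher and 3 lower, 1 Gq gene higher and 2 lower, 3 Gi/o genes higher and 1 lower, 1 desensitisation gene higher and 3 lower, and 2 transport genes higher and 5 lower. Of all genes 19.2% were called, near the share of the partners (4 of 19), Gq genes (3 of 20) and Gi/o genes (4 of 20), while 4 of 12 desensitisation and 7 of 15 transport genes were called. Kcnj6, a potassium channel opened by Gi/o-coupled receptors, rose from 772 ± 76.0 to 1020 ± 85.6 (0.40, SE 0.068), in 10 of 10 libraries. The adenylyl cyclases Adcy9 (0.34) and Adcy1 (0.25) rose, and the G protein subunit Gnai2 (-0.22), phospholipase Plcb3 (-0.32) and the regulator Rgs14 (-0.36) fell. Eef2k rose by 0.16. Of the genes of glutamate transport and supply, Slc1a3 (-0.19), the glutamine synthetase gene Glul (-0.21), the glutamine transporter Slc38a3 (-0.35) and Slc7a11 (-0.31) fell. Slc1a3 and Glul are genes of astrocytes, and Slc1a3 is 1 of the astrocyte markers above. Each of these calls held after the GC correction, with the library term and in 20 of 20 fits. In Het mice lithium called 1 gene of the lists, Slc7a11, which fell by 0.30 (adjusted p = 0.0287), from 1733 ± 217 to 1400 ± 130 in 10 of 10 libraries. That call was kept in 14 of 20 fits, and its adjusted p was 0.0532 to 0.0844 without Het lithium female replicate 2 or 3 or male replicate 2 or 5, or without Het vehicle female or male replicate 3.

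In Het mice under fluoxetine, the calls were 4 partners higher and 10 lower, 11 Gq genes higher and 5 lower, 6 Gi/o genes higher and 4 lower, 1 desensitisation gene higher and 2 lower, and 6 transport genes higher and 3 lower. Of all genes 39% were called, against 14 of 19 partners, 16 of 20 Gq, 10 of 20 Gi/o, 3 of 12 desensitisation and 9 of 15 transport genes. The medians were -0.18 for the partners and 0.14 for the Gq genes, against 0.00 over all genes tested. Of the Gq genes, Plcb1 (0.28), the phospholipase that Grm5 acts through, Prkca (0.36) and Fmr1 (0.30), the fragile X gene, also rose. After the GC correction, where 19.6% of all genes were called, 8 of the 20 Gq genes, 6 of the 20 Gi/o genes, 5 of the 19 partners, 3 of the 12 desensitisation genes and 3 of the 15 transport genes were called. Among them were Plcb1 (0.19, adjusted p = 0.0011) and Prkca (0.30). With the library term, 0 genes of the 5 lists were called.

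Between libraries of the same group, some receptors varied together. The residuals of the 6 genes after subtraction of the 12 means of group and sex were compared over the 60 libraries in 15 pairs, with permutation p-values within groups adjusted over the pairs. Grm5 and Grm7 had the strongest relation, with r = 0.62 and rho = 0.53 (p = 2e-05 and adjusted p = 3e-04 for r, adjusted p = 0.00315 for rho). It was 0.54 without the 2 libraries farthest from the median and 0.65 after the GC correction. Grm2 and Grm4 had r = 0.54 (rho = 0.47, adjusted p = 0.0012 for r and 0.0051 for rho), which was 0.46 without the 2 farthest and 0.37 after the GC correction. Grm2 and Grm5 had r = -0.52 (rho = -0.38, adjusted p = 0.00833 for r and 0.0253 for rho), -0.40 without the 2 farthest, and after the GC correction -0.17 (adjusted p = 0.348). Grm4 and Grm5 had r = -0.47 (rho = -0.39, adjusted p = 0.004 for r and 0.0126 for rho), -0.50 without the 2 farthest and -0.41 after the correction. Grm4 and Grm8 had r = 0.35 (rho = 0.33, adjusted p = 0.0303 for r and 0.0435 for rho), 0.28 without the 2 farthest and 0.46 after the correction. The other 10 pairs had an adjusted p for r above the threshold of 0.05. Of these, Grm2 and Grm8 (r = 0.33, adjusted p = 0.0587) passed for rho (0.42, adjusted p = 0.0126) and had r = 0.60 after the GC correction (adjusted p = 0.00015). Grm3 and Grm4 had r = -0.42 (adjusted p = 0.00537) and Grm3 and Grm7 had r = 0.38 (adjusted p = 0.0317) after the correction, against -0.31 (adjusted p = 0.0587) and 0.31 (adjusted p = 0.125) before it. The remaining 7 pairs did not pass for r, for rho or after the correction. How often pairs of other genes would pass was not counted, so these relations are not shown to be particular to the receptors.

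The genes most like each member over the same residuals are given as a description. For Grm5 they were Rab11fip2 (r = 0.93), Fam126b (0.93) and Tmem30a (0.92), whose transcripts have 37% to 40.9% GC. For Grm4 they were Fam20c (0.91), Gpsm1 (0.90) and Inpp5j (0.89), with 54.1% to 58.9% GC. For Grm2 they were Rasl11b (0.81), Mpp2 (0.78) and Crhr1 (0.78), and for Grm7 Tspyl5 (0.81), Slit2 (0.80) and Flrt2 (0.79). For Grm3 they were Rims1 (0.76), Apln (0.75) and Itgam (0.75), and for Grm8 Wls (0.73), Tmem131 (0.71) and Hdac9 (0.71). After the GC correction these r were 0.60 to 0.87. The libraries share depth and base composition trends, which such correlations carry.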

How the data were processed

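RNA was sequenced from the prefrontal cortex of 60 samples in 12 groups of 5. Each deposited value is a normalised signal: the reads of a gene divided by a size factor of its library, as the numbers themselves show, since 100% of them came out as whole reads, within 0.001, once multiplied back. The submitters' processing notes name Salmon 0.11.2, R 3.6.0, DESeq2 1.19.11 and GRCm38, with no role given. Symbols, positions and GC content came from GENCODE M21.

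Here log2(value + 1) of the 17810 genes with at least 10 in 5 libraries was fitted with limma 3.58.1 (R 4.3.3; trend and robust; 12 group means, 48 residual degrees of freedom), and 10 contrasts were tested with Benjamini-Hochberg adjustment over all genes. A call is an adjusted p below 0.05. Fold changes are on this log2 scale. Alternatives were edgeR 4.0.16 and DESeq2 1.42.0 on the recovered reads, TMM scaling, no filter, a pseudocount of 5, the groups of a contrast alone, a replicate block, a loess correction on GC content (span 0.3), terms for the library sets, and leaving out libraries. The pseudogenes that set the library term are 16 with more than 4-fold differences, and its 10 libraries lie below the widest gap in their mean level. The scripts were tested on simulated data.

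The 6 members and all lists were chosen with earlier results of these data known. The text names the members, at most 4 called genes per list, direction and contrast, the 6 genes Homer1, Homer2, Homer3, Elfn1, Elfn2 and Pick1, and the 3 genes most like each member.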

Additional observations from a re-analysis of the deposited data

Results flagged for a closer look

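In 8 of the 72 groups of 5 libraries formed by the 6 receptor genes, 1 library lay far from the other 4 by Dixon's test, where chance gives about 1 in 20. In WT vehicle, female replicate 2 had 6459.48 normalised reads of Grm5, against 4831 to 5022 in the other females. In WT lithium, male replicate 5 had 8005.42 of Grm5 against 5214 to 5859, and female replicate 5 had 298.952 of Grm8 against 475 to 538. In Het vehicle, female replicate 2 was low in Grm2 (1829.16 against 2298 to 2452), female replicate 3 was high in Grm3 (2185.19 against 1834 to 1935) and male replicate 5 was high in Grm4 (1671.94 against 969.8 to 1113). In Het fluoxetine, female replicate 2 had 1160.79 of Grm4 against 802 to 879.7. In Het lithium, female replicate 3 had 635.281 of Grm8 against 509 to 536.

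2 effects differed between groups of libraries by a test of the difference itself, and each lost its call in other fits. The effect of fluoxetine on Grm5 was larger in Het than in WT mice by 0.303213 (log2), which was 0.18 after the GC correction (adjusted p = 0.0422), 0.08 with the library term (adjusted p = 0.945) and 0.19 with the Rps6-ps4 term (adjusted p = 0.388). The effect of lithium on Grm8 in WT females minus that in WT males was -0.463233, in a comparison added after the values were seen. It was -0.24 after the GC correction (adjusted p = 0.425) and -0.31 without the 3 most deviating libraries (adjusted p = 0.714).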

How the results depend on the processing

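The 60 log2 differences of the 6 receptors (10 contrasts) gave 714 values under the alternatives, of which 682 stayed on the same side of the threshold, 20 lost the call, 10 gained one and 2 called ones reversed. Among the 682, 40 that were not called changed sign. With the library term Grm2 was 0.00834 between Het and WT in fluoxetine, and Grm7 -0.0483 between fluoxetine and vehicle in Het. The causes were not tested.

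Called receptors for Het against WT in fluoxetine were 2, but 5 with the 4 groups fitted alone, 4 without the 3 most deviating libraries, 1 with the GC correction (also with a replicate block), and 0 with the library or Rps6-ps4 term. Of the 17810 genes tested, 7433 were called with the groups alone and 7767 without the 3 libraries, against 7042 as first fitted. For fluoxetine in Het they were 4, but 2 with the GC correction (also with the replicate block) and 0 with either term. For lithium in WT they were 1, but 0 with the groups alone, 2 with the library term and 2 without the 3 libraries. Over all genes these 3 fits called 1278, 4036 and 3312. For the fluoxetine interaction they were 1, but 0 with either term. Leaving out 1 library gave 2 to 4, 2 to 4, 0 to 2 and 1 in these contrasts. Over all genes it gave 6503 to 7166, 6245 to 7036, 2650 to 4296 and 3279 to 4551.

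Over all genes, calls for Het against WT in fluoxetine went from 7042 to 2328 (GC), 2312 (GC and block), 7 (library term) and 15 (Rps6-ps4 term), for fluoxetine in Het from 6952 to 3493, 3472, 49 and 332, and for the interaction from 4272 to 1328, 1298, 8 and 42. Het against WT in vehicle went from 105 to 47 (alone), 224 (GC), 229 (GC and block), 343 (3 libraries left out) and 66 (edgeR), with 17 to 132 by leaving out 1 library. Lithium in Het went from 175 to 378, 381, 496 and 354 (GC, GC and block, 3 libraries left out, DESeq2), and to 54 to 259 by leaving out 1 library. Lithium in WT went from 3420 to 1278 (alone). Het against WT in lithium went from 5 to between 0 and 20 under the other settings and 0 to 81 by leaving out 1 library, the lithium interaction from 12 to between 6 and 47 and 5 to 59, and sex from 19 to 30 (DESeq2).

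The replicate numbers do not pair the libraries: same-numbered libraries had a median correlation of 0.000406, and 8 of 60 correlated best with their own number. With the replicate block, 3 receptors were called for Het against WT in fluoxetine (Grm7 at an adjusted p of 0.0493), where 7064 of all genes were called. No other call of a receptor changed. Each receptor rested on 315 or more reads in every library.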
